A study of Mus musculus with 77 samples.

Results

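The 9 genes Alb, Ttr, Ambp, Apoh, F2, Fga, Fgb, Fgg and Hpx, which code for abundant plasma proteins made by hepatocytes, were followed through all 77 libraries. They were taken by symbol, through the Ensembl gene ID of each row, and all 9 were found among the 56181 features of the count tables, of which 55450 could be paired with a symbol. All mice were males of 12 weeks of age of 1 strain, FVB.129P2-Cyp3a13tm1Ahs, which also carries the deletion Del(5Cyp3a57-Cyp3a59)1Ahs and the transgene Tg(APOE-CYP3A4)A1Ahs, that is, human CYP3A4 under APOE sequences in mice with Cyp3a genes disrupted or deleted. For 2 weeks they had eaten either high-fat food (HFD) or the low-fat control (LFD). The transgene and the deletions were therefore shared by both diets, by input and by pull-down, and no group without them was analysed here. APOE liver control sequences are known to direct transgenes to hepatocytes, and the study's title names the method iTag RNA labelling. Neither the compound nor the chemistry of the pull-down is named in the labels, so an input library is RNA before the pull-down and a pull-down library is the RNA recovered by it.

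Both fractions were sequenced for liver mRNA (3 libraries per diet and fraction), kidney mRNA (3 HFD and 2 LFD), and small RNA of liver, of the tissues labelled VsWAT and GAS, and of plasma. The small RNA groups had 3 libraries each, except the LFD liver pull-down and every plasma group, which had 2. VsWAT and GAS also had total RNA libraries, with 3 per diet and input only. The labels do not say that replicate libraries came from different animals, so p-values below measure the spread between these libraries.

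Hepatocytes secrete most of the protein of blood plasma. The transcripts are made at very high levels, translated at the rough endoplasmic reticulum and exported, and their promoters are bound by liver-enriched factors such as C/EBP and FOXA proteins. Albumin (Alb) is the main carrier and osmotic protein of plasma. Transthyretin (Ttr) carries thyroid hormone and the retinol-binding protein, the Ambp product is cleaved into alpha-1-microglobulin and bikunin, haemopexin (Hpx) scavenges free haem, and apolipoprotein H (Apoh, beta-2-glycoprotein I) binds anionic phospholipids. Prothrombin (F2) is the precursor of thrombin, which cleaves fibrinogen, the clot protein built of alpha, beta and gamma chains from Fga, Fgb and Fgg. Fibrinogen and haemopexin are acute-phase proteins.

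The 3 fibrinogen genes lie together on mouse chromosome 3 (GRCm38.p6, the assembly of the RefSeq annotation used for positions), from 83007724 to 83049863, a span of 42140 bases. Fgg (83007724 to 83015056) and Fga (83026153 to 83033627) are on the plus strand, and Fgb (83042246 to 83049863) is on the minus strand. A noncoding gene, Gm30097, overlaps the start of Fgg, and the strand setting of the counting is not given in the sources used here, so reads of this overlap cannot be assigned with certainty. Alb lies at chr5:90460870-90476602 on the plus strand, Ambp on chromosome 4, Apoh on chromosome 11, F2 on chromosome 2 and Hpx on chromosome 7.

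The 250 bases before the annotated start are shown for Alb and for the 3 fibrinogen genes, because Alb gave most of the counts and the fibrinogen genes changed least between fractions. Capitals mark the letters CCAAT or their reverse complement ATTGG (the CCAAT box, a common promoter element). Windows are chr5:90460620-90460869 (plus strand) for Alb, chr3:83025903-83026152 (plus) for Fga, chr3:83049864-83050113 (minus) for Fgb and chr3:83007474-83007723 (plus) for Fgg, from RefSeq on GRCm38.p6.
Alb: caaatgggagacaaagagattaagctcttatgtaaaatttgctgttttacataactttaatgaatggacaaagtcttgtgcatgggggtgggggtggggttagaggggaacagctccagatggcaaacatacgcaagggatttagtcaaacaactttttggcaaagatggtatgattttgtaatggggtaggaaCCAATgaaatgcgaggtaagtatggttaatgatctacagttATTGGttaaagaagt
Fga: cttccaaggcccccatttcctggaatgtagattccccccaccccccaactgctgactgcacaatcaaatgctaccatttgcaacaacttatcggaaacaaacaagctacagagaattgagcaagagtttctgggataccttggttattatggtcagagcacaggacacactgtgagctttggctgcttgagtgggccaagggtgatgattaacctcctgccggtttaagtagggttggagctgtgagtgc
Fgb: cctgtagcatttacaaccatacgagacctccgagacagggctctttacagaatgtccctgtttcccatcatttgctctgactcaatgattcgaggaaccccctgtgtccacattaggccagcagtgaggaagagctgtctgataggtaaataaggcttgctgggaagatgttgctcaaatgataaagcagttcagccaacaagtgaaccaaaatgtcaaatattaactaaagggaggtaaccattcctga
Fgg: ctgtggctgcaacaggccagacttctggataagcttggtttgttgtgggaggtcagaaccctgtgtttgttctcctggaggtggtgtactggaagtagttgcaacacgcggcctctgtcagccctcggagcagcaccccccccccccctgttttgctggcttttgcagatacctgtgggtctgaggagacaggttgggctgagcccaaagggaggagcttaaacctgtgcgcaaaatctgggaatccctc
The CCAAT box letters began at positions -56 and -15 in Alb, counted from the annotated start, and were in none of the 3 fibrinogen windows. They were also in the windows of Ambp and Hpx and not in those of Apoh and F2, and 11120 of 32851 windows of the same length genome-wide (33.8%) held them on either strand. The letters TATAAA were in none of the 8 windows that had a promoter entry, and 7.59% of all windows held them. These matches are letters in a window and not measured sites.

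Library depth in counts assigned to features ran from 3033702 to 4942158 in liver mRNA, 3741335 to 19645443 in kidney mRNA, 573697 to 3608065 in liver small RNA, 881578 to 2580104 in VsWAT small RNA and 221875 to 828030 in plasma. Levels below are CPM, that is, counts scaled to the same total of assigned counts in each library, and are compared within a gene across libraries, since no transcript lengths were used. Marker genes followed the tissue labels. Kidney epithelial markers summed to 69258 to 86332 CPM in kidney input and 11.7 to 191 CPM in liver mRNA input, adipocyte markers to 7266 to 9446 CPM in VsWAT small RNA input, and skeletal muscle markers to 32961 to 57034 CPM in GAS total RNA. Plasma input held erythroid markers at 20802 to 43421 CPM. Some libraries stood apart from their group. In liver mRNA input, HFD replicates 1 and 3 and LFD replicates 2 and 3 were near-copies of each other in their counts (chi-square per degree of freedom 1.18 and 1.13), whereas LFD replicate 1 differed from the other LFD libraries with values of 62.5 and 58.8. VsWAT small RNA input HFD replicates 1 and 2 gave 1.53. These pairs still differed by slightly more than counting noise, so they were kept as separate libraries, and results that depend on this are marked.

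Across the series, the 4 kinds of liver library ranked highest for each of the 9 genes. Over 23 liver libraries and 54 others, the lowest liver library exceeded the highest other library for 7 of the 9 genes, and for 184 (4.16%) of the 4426 genes that averaged 100 counts or more in liver mRNA input. The exceptions were Fgb and Fgg, through 1 library of plasma pull-down. Median Alb was 41010 CPM in liver mRNA input, 32655 in liver small RNA input, 30081 in liver small RNA pull-down and 22760 in liver mRNA pull-down. It was 1056 CPM in plasma pull-down, 452 and 379 in VsWAT small RNA input and pull-down, 63.8 in VsWAT total RNA and 27.6 in plasma input. GAS small RNA input (3.12), kidney input (3.1), GAS pull-down (1.76), kidney pull-down (1.7) and GAS total RNA (0.467) closed the order. For Alb, 12 of the 13 neighbouring kinds in this order overlapped in range, and only the step from liver mRNA pull-down to plasma pull-down did not. In bulk samples such as these, fewer cells of a type and less RNA per cell cannot be told apart.

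**Figure D1:**
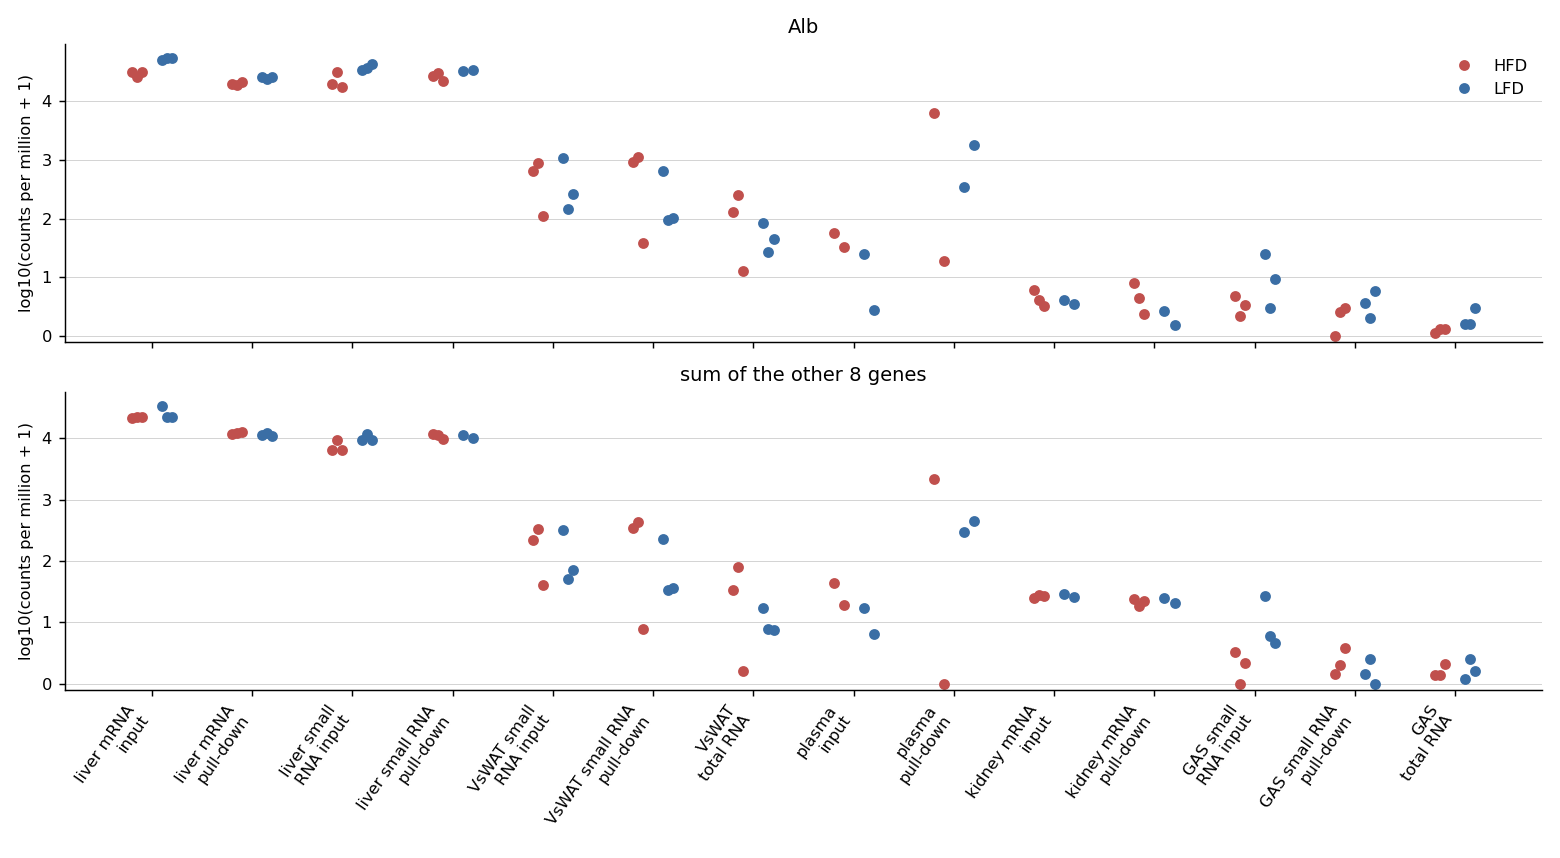
Level of Alb (top) and the summed level of the other 8 genes (bottom) in each of the 77 libraries, as log10(CPM + 1), by tissue, RNA type and fraction, with HFD in red and LFD in blue. Liver libraries of all 4 kinds lie above the rest for Alb, and the plasma pull-down libraries spread from 18.1 to 6280 CPM of Alb.

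In liver mRNA all 9 plasma protein genes were lower in the pull-down than in the input (8 of the 9, without Fgg, under scaling to the total count), by very different amounts: the log2 change was between -2.13 and -1.67 for F2, Ttr, Ambp, Apoh and Hpx, -1.07 for Alb and between -0.61 and -0.46 for the fibrinogen chains. Over all genes tested, 35.9% were called lower at an edgeR adjusted p below 0.05, 37.7% higher and 73.6% in either direction, with a median log2 change of 0.02. The comparison asks which liver transcripts the pull-down recovered in proportion, and it pools both diets.

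Among the carriers, Alb was at 31140, 26091 and 31852 CPM in the HFD inputs and 50169, 54774 and 54456 CPM in the LFD inputs. In the pull-down it was at 19648, 18983 and 21516 CPM (HFD) and 25889, 24005 and 25885 CPM (LFD). Every pull-down library lay below every input library, by a narrow margin for HFD replicate 2 of the input, and the log2 change was -1.07 ± 0.09 (SE; n = 6 libraries per fraction; edgeR adjusted p = 1.43e-07). Ttr ranged from 5585 to 12567 CPM with a median of 5886 in the input and from 1584 to 2762 with a median of 1900 in the pull-down, a log2 change of -2.11 ± 0.25 (edgeR adjusted p = 2.17e-05). Its highest value was that of LFD replicate 1 of the input. Ambp went from 1292 to 2098 CPM (median 1518) to 362 to 494 CPM (median 446), a change of -2.07 ± 0.13 (edgeR adjusted p = 1.7e-08).

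Apoh stood at 2260 to 3590 CPM (median 2630) in the input and 693 to 822 CPM (median 756) in the pull-down. Its log2 change of -2.13 ± 0.16 was the lowest of the 9 genes (edgeR adjusted p = 1.21e-07). Hpx stood at 1949 to 3974 CPM (median 2488) and 769 to 1149 CPM (median 882), a change of -1.75 ± 0.14 (edgeR adjusted p = 1.91e-07). For these carriers the input and pull-down ranges did not overlap. The share of all genes that separated in this way was not counted, here or in the other comparisons of fractions, and 73.6% of all genes were called in this one.

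The coagulation genes split. F2 was at 1052 to 1607 CPM (median 1368) in the input and 439 to 566 CPM (median 501) in the pull-down, with no overlap and a log2 change of -1.67 ± 0.09 (edgeR adjusted p = 4.9e-09). The fibrinogen genes overlapped between fractions in CPM. Fga ranged from 1900 to 2446 CPM in the input and 1519 to 1984 in the pull-down (log2 change -0.61 ± 0.07, edgeR adjusted p = 4.39e-06). Fgb ranged from 3005 to 4481 and from 2591 to 3050 CPM (-0.57 ± 0.14, edgeR adjusted p = 0.00198). Fgg had medians of 2837 and 2479 CPM (-0.46 ± 0.12, edgeR adjusted p = 0.00346). With scaling to the total count, which moved the median of all genes to 0.27, Fgg was at -0.19 with an adjusted p of 0.0555, and the other 8 genes were still called lower.

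**Figure D2:**
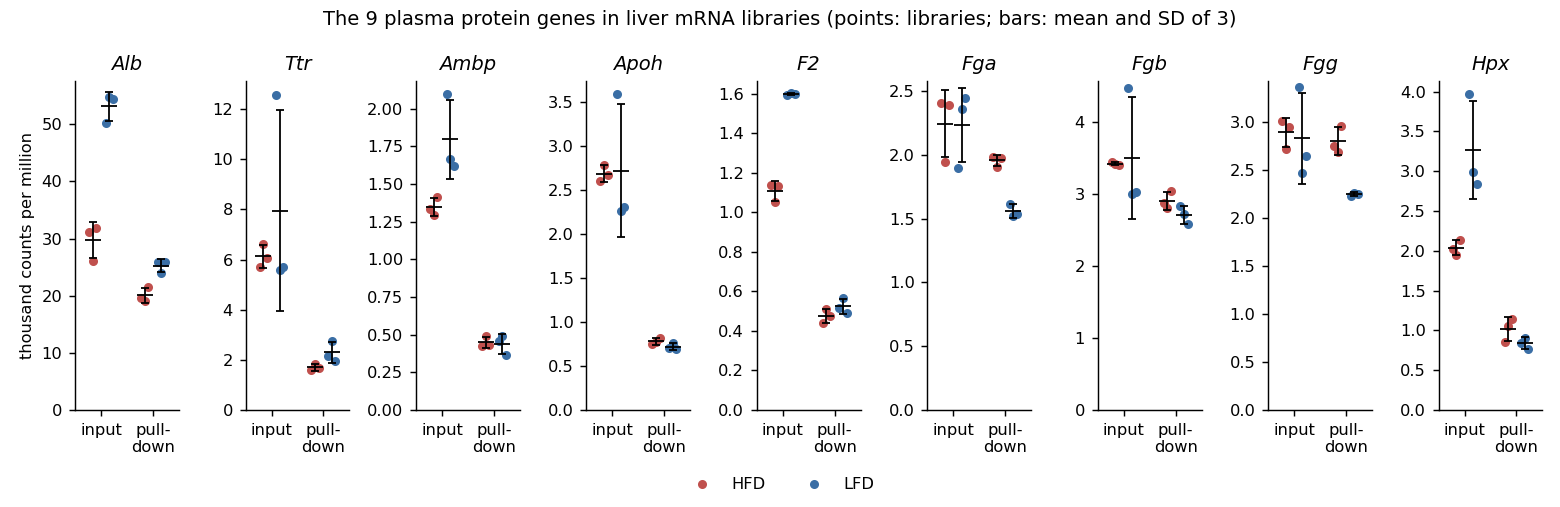
Level of each of the 9 genes in CPM divided by 1000 in the 6 input and 6 pull-down libraries of liver mRNA, with HFD in red, LFD in blue and bars for the mean ± SD of 3 libraries per diet. The pull-down points lie below all input points for Alb, Ttr, Ambp, Apoh, F2 and Hpx and overlap with them for Fga, Fgb and Fgg.

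Ratios between the genes within a library do not depend on how libraries are scaled. Fga, Fgb and Fgg together made up 29.1% to 40.9% of the counts of the 8 genes other than Alb in the liver mRNA inputs and 54.2% to 65.3% in the pull-downs. There were 3.95 to 9.81 Alb counts per Ttr count in the inputs and 8.69 to 13.1 in the pull-downs, so this ratio overlapped between fractions. The ratio of Fgb to Ttr ran from 0.357 to 0.605 and from 0.985 to 1.83, without overlap.

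Other secreted products of the hepatocyte moved the same way. Of 22 further coagulation and fibrinolysis genes, 0 were called higher and 21 lower, with a median log2 change of -1.24. They included Serpinc1 (antithrombin, -1.92 ± 0.08, edgeR adjusted p = 2.39e-09), Cpb2 (the fibrinolysis inhibitor TAFI, -2.14 ± 0.1, edgeR adjusted p = 4.18e-09) and Serpind1 (heparin cofactor II, -1.42 ± 0.07, edgeR adjusted p = 5.01e-09). Of 34 tested genes for other secreted hepatocyte proteins, 0 were higher and 32 lower (median -1.65), among them Pon1 (paraoxonase, -2.53 ± 0.1, edgeR adjusted p = 2.21e-09) and Vtn (vitronectin, -2.25 ± 0.09, edgeR adjusted p = 2.21e-09).

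Of 19 liver transcription factor genes, 14 were called higher and 2 lower (median 0.85). Cebpa (C/EBP alpha) rose by 1.68 ± 0.13 (edgeR adjusted p = 1.5e-07) and Foxa3 by 1.54 ± 0.1 (edgeR adjusted p = 2.5e-08) on the log2 scale. Of 16 intracellular hepatocyte genes, 4 were higher and 12 lower (median -0.74). Their summed level nevertheless rose, from 22498 to 31501 CPM in the input to 37505 to 59604 CPM in the pull-down. Markers of other cells moved with the secreted group: 9 of 9 tested endothelial, 8 of 8 macrophage and leukocyte, 6 of 6 fibroblast and 4 of 4 erythroid genes were called lower, with medians of -2.14, -1.67, -2.57 and -2.64. Their part in the change of the 9 genes was not tested.

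**Figure D3:**
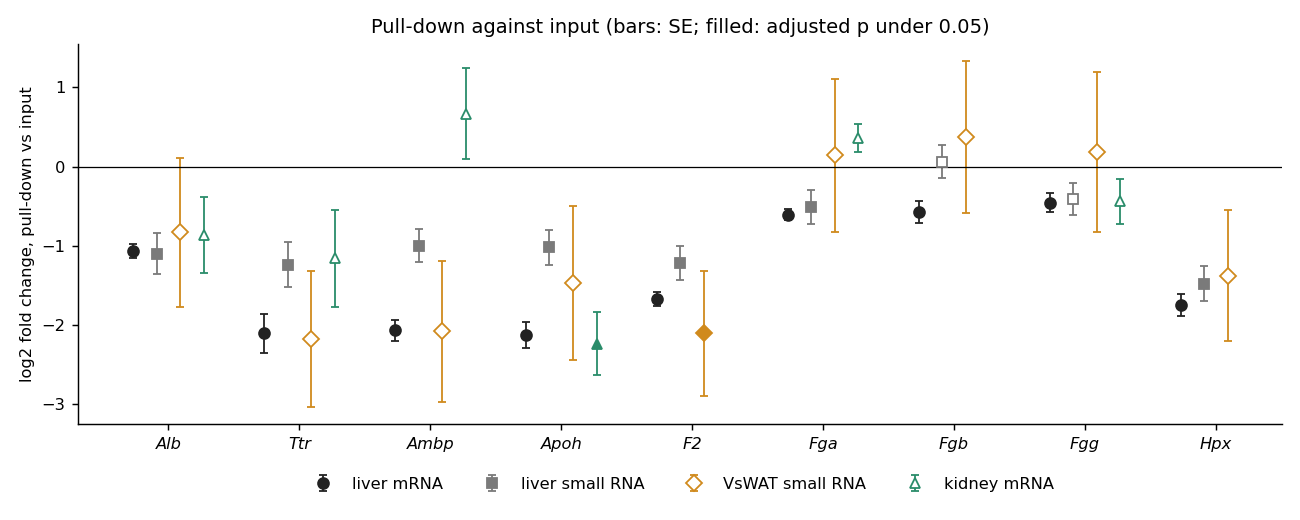
Log2 fold change of pull-down against input with its SE for each of the 9 genes in liver mRNA, liver small RNA, VsWAT small RNA and kidney mRNA, with filled points where the edgeR adjusted p was below 0.05. In liver mRNA the fibrinogen genes lie at -0.61 to -0.46 and Apoh at -2.13.

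Between the diets, Alb and Ttr were called lower after HFD than after LFD in the pull-down of liver mRNA. The Ttr call was lost when the dispersion was taken from all liver mRNA groups, whereas the Alb call was kept. Alb and F2 were also called lower in the input, and F2 in the pull-down, but these 3 calls were lost under several alternatives given below: the input calls with near-copies summed or with 5 of the 6 libraries left out in turn, and the F2 call in the pull-down with scaling to the total count. The question is whether a 2-week diet moved the liver transcripts. In the input, where 8.09% of genes were called lower and 4.96% higher, Alb averaged 29694 ± 3141 CPM after HFD and 53133 ± 2571 after LFD (SD, n = 3 each). The groups did not overlap, and the log2 change of HFD against LFD was -0.80 ± 0.13 (edgeR adjusted p = 0.0156). F2 averaged 1109 ± 48.9 and 1600 ± 6.69 CPM, again without overlap (-0.50 ± 0.12, edgeR adjusted p = 0.039). The share of all genes whose diet groups did not overlap was not counted, in the input or in the pull-down.

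The other 7 genes were not called in the input. Hpx stood at 2027, 1949 and 2135 CPM after HFD and 3974, 2988 and 2840 CPM after LFD. Its groups did not overlap, but its change of -0.67 ± 0.21 had an edgeR adjusted p of 0.0837. Ttr stood at 5707, 6608 and 6065 CPM after HFD and at 12567, 5585 and 5699 CPM after LFD, so that LFD replicate 1 alone was high. The same library was the highest of the 6 for Ambp, Apoh, Fgb, Fgg and Hpx and the lowest for Fga.

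The input calls rest on few distinct libraries. With the near-copies summed to 1 library each, 0 of the 9 genes were called and Alb was at -0.86 with an adjusted p of 0.33. Without LFD replicate 1 of the input, 8 genes were called: Alb (-0.75), F2 (-0.40), Hpx (-0.38) and Ambp (-0.16) lower, and Ttr (0.25), Apoh (0.37), Fgb (0.32) and Fgg (0.31) higher, with the LFD group then made of the near-copies. Without any 1 of the other 5 libraries, 0 were called. The shares of all genes called in these alternative fits are not given here, so their counts have no background beside them. The kidney gene Kap, which is not a hepatocyte transcript, was at 158 CPM in LFD replicate 1 of the input and at 7.87 to 41.2 CPM in the other inputs. Its part in these values was not tested.

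In the pull-down, where 15.6% of genes were called, 8.06% lower and 7.56% higher, 3 of the 9 genes were lower after HFD. Alb averaged 20049 ± 1313 CPM after HFD and 25260 ± 1087 after LFD (SD, n = 3 each), a log2 change of -0.46 ± 0.09 (edgeR adjusted p = 5.24e-04). Ttr stood at 1584, 1830 and 1671 CPM against 2164, 2762 and 1970 CPM (-0.57 ± 0.11, edgeR adjusted p = 0.00156). F2 stood at 439, 509 and 478 CPM against 517, 566 and 493 CPM (-0.27 ± 0.09, edgeR adjusted p = 0.0372). Alb and Ttr did not overlap between diets, while F2 did, and its call was lost without HFD replicate 1 (-0.21), HFD replicate 3 (-0.28) or LFD replicate 2 (-0.21), and with DESeq2 (adjusted p = 0.0542).

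The fibrinogen genes Fga and Fgg lay on the other side in the pull-down. Fga stood at 1984, 1907 and 1977 CPM after HFD and 1618, 1519 and 1537 CPM after LFD, and Fgg at 2759, 2692 and 2966 against 2234, 2266 and 2258 CPM. Neither gene overlapped between diets, but neither was called (0.20 ± 0.08, edgeR adjusted p = 0.0977, and 0.19 ± 0.08, edgeR adjusted p = 0.139). Same-numbered pull-down libraries of the 2 diets deviated together (correlations 0.161 to 0.174). With the replicate number as a block, 5 genes were called, Alb, Ttr and F2 lower and Fga (0.20) and Fgg (0.19) higher after HFD. Scaling to the total count, which put the median of all genes at 0.13, called 4 genes, with F2 at -0.15 no longer called and Fga (0.33) and Fgg (0.32) higher. A fit that took its dispersion from all 4 liver mRNA groups called 1 gene, Alb. The shares of all genes called in these alternative fits are not given here, so their counts have no background beside them.

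The effect of diet was not called different between input and pull-down for any of the 9 genes by edgeR (3.36% of all genes called). Hpx was the only one with an unadjusted p below 0.05, with a difference of 0.84 ± 0.27 (edgeR adjusted p = 0.106), and DESeq2 called 0. Without LFD replicate 1 of the input, 4 of the 9 genes were called, among them Apoh (-0.44) and Fgb (-0.40). The share of all genes called without that library is not given here.

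Liver small RNA libraries also held counts of these genes. With TMM scaling, used throughout, the carriers, F2 and Fga were lower in the pull-down and Fgb and Fgg were not called, whereas scaling to the total count gave no gene lower and the 3 fibrinogen genes higher. Over all genes tested, 28.2% were called lower and 55.2% in either direction. The median log2 change was 0.10, and scaling to the total count moved it to 1.22, so changes here are relative to that choice. With TMM scaling, 7 of the 9 genes were called lower: Hpx at -1.48 ± 0.22 (edgeR adjusted p = 3.59e-05), Ttr at -1.24 ± 0.28 (0.00129), F2 at -1.22 ± 0.21 (1.13e-04), Alb at -1.10 ± 0.26 (0.00179), Apoh at -1.02 ± 0.22 (7.9e-04), Ambp at -1.0 ± 0.21 (6.47e-04) and Fga at -0.51 ± 0.21 (0.0486). The Fga call was lost when any of 8 of the 11 libraries was left out (-0.56 to -0.43).

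In CPM, Alb ranged from 17479 to 43001 (median 32655) in the input and from 22449 to 34668 (median 30081) in the 5 pull-downs, so the ranges overlapped. Fgb ranged from 566 to 1472 CPM (median 994) and from 1591 to 2595 CPM (median 2196), without overlap, while its TMM-scaled change was 0.06 ± 0.21 (edgeR adjusted p = 0.821). Fgg had medians of 900 and 1346 CPM and a change of -0.41 ± 0.20 (edgeR adjusted p = 0.0927). With scaling to the total count, 3 genes were called, all higher: Fga (0.60), Fgb (1.19) and Fgg (0.73). Alb (0.01), Ambp (0.11) and Apoh (0.11) then changed sign without a call.

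Of the 22 further coagulation genes, 0 were called higher and 21 lower with TMM scaling (median -0.99), and 3 higher and 5 lower with scaling to the total count (median 0.13).

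The ratios between the genes do not depend on the scaling. Fibrinogen made up 27.9% to 39% of the counts of the 8 genes other than Alb in the liver small RNA inputs and 40.1% to 56.7% in the pull-downs, which just separated. Alb counts per Ttr count ran from 8.51 to 15.1 and from 10.1 to 17.7. Between diets, 0 of the 9 genes were called in the small RNA input (0.111% of genes called) or pull-down (0.0545%) by edgeR or DESeq2, and none had an unadjusted p below 0.05.

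**Figure D4:**
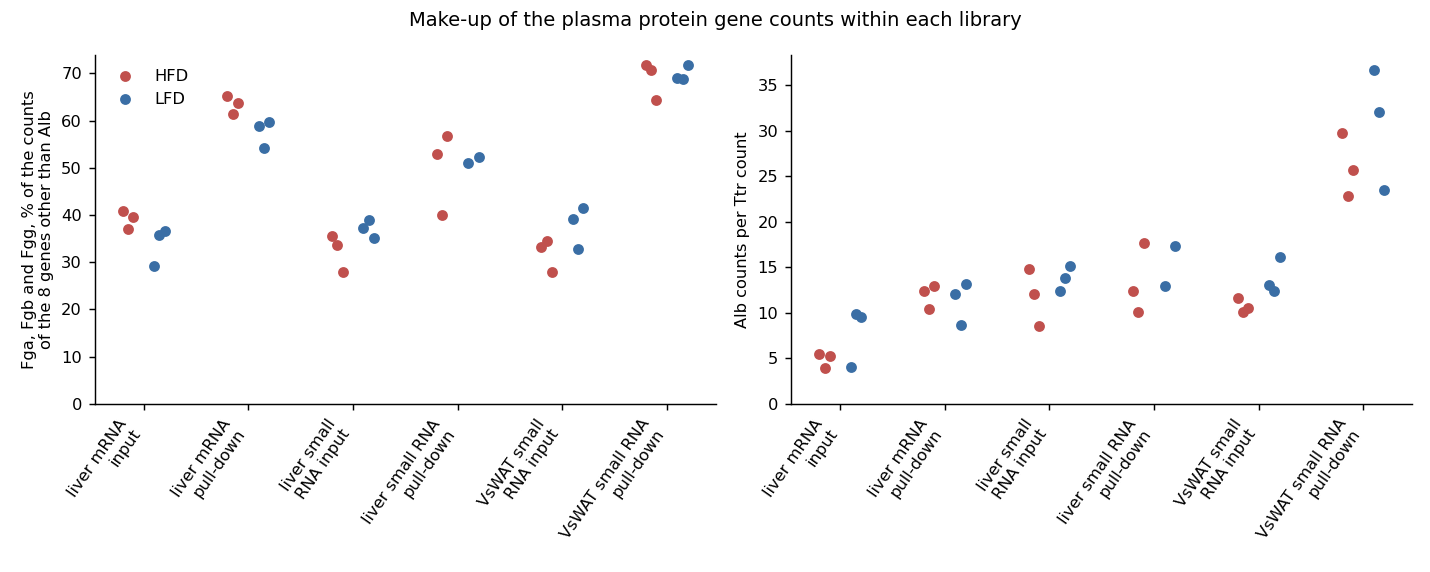
Fibrinogen counts (Fga, Fgb and Fgg) as a percentage of the counts of the 8 genes other than Alb, and Alb counts per Ttr count, in each library of 6 kinds: input and pull-down of liver mRNA, liver small RNA and VsWAT small RNA, with HFD in red and LFD in blue. The fibrinogen share is higher in every pull-down library than in every input library of the same tissue and kind of RNA.

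In kidney, which is not a site of bulk plasma protein synthesis, the 9 genes gave 1970 counts in all over the 5 input libraries, and the mix differed from that of liver. Apoh gave 38.2% of them (exact 95% binomial interval 36 to 40.4), Fga 30.2% (28.2 to 32.3), Fgg 13.6% (12.1 to 15.1), Alb 10.7% (9.33 to 12.1) and Fgb 1.12% (0.701 to 1.69). In liver mRNA input Alb gave 63.6% of the counts of the 9 genes, Apoh 4.13%, Fga 3.5%, Fgg 4.41% and Fgb 5.3%. Intervals cover counting error only, since reads without molecular identifiers are not independent molecules.

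The balance of the fibrinogen chains therefore differed between the tissues, most of all for Fgb, which had 22 counts over the kidney inputs. There were 16.6 to 48.2 Fga counts per Fgb count in the kidney inputs and 0.424 to 0.808 in the liver mRNA inputs. Fga counts per Fgg count shifted less, from 0.563 to 0.953 in the liver mRNA inputs to 1.54 to 2.76 in the kidney inputs. Liver input was far above kidney input in a comparison where edgeR called 60.6% of all genes tested (28.1% higher in liver). Ttr, Ambp, F2, Fgb and Hpx passed its filter only through liver, so no count of the 9 and no fold of these genes is given. The log2 difference was 8.37 ± 0.31 for Apoh, 8.48 ± 0.20 for Fga, 9.92 ± 0.31 for Fgg and 14.10 ± 0.39 for Alb. In the kidney inputs Ttr was at 0.56 to 1.63 CPM, Ambp at 0.376 to 0.56, Fgb at 0.204 to 0.505 and Hpx at 0.125 to 0.305. F2 was at 0 to 0.314 CPM, with 0 in both LFD kidney inputs.

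**Figure D5:**
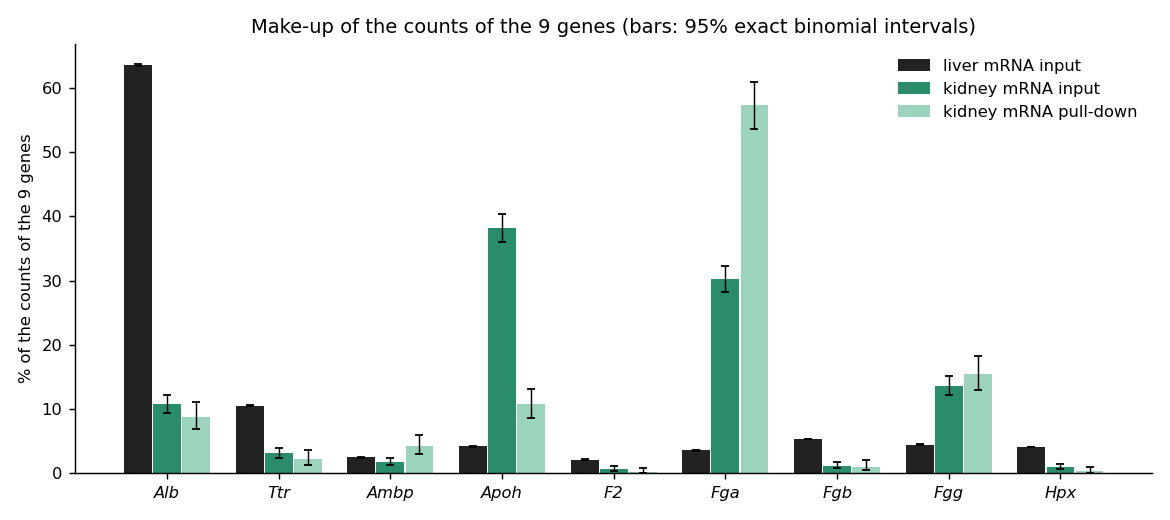
Share of each gene in the counts of the 9 genes, in percent with the exact 95% binomial interval, for summed libraries of liver mRNA input, kidney mRNA input and kidney mRNA pull-down. Alb leads in liver with 63.6%, Apoh in kidney input with 38.2% and Fga in kidney pull-down with 57.3%.

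The kidney pull-down lowered Apoh and left the other tested genes uncalled. Apoh was at 9.43, 12.1 and 10.9 CPM (HFD) and 12.8 and 10.5 CPM (LFD) in the input and at 3.93, 1.87 and 2.15 CPM (HFD) and 5.61 and 0.875 CPM (LFD) in the pull-down. The fractions did not overlap and the log2 change was -2.24 ± 0.40 (n = 5 libraries each; edgeR adjusted p = 5.28e-04), in a comparison where 26.3% of genes were called lower and 52.8% in either direction. Fga was at 7.71, 8.37, 9.82, 7.9 and 8.94 CPM in the input and 12.1, 10.7, 12.5, 14.1 and 13.6 CPM in the pull-down. Every Fga pull-down value was above every input value, but the change of 0.36 ± 0.18 was not called (edgeR adjusted p = 0.115). With scaling to the total count Fga was called, at 0.58 (adjusted p = 0.0203).

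Alb (-0.87 ± 0.48, edgeR adjusted p = 0.141), Ttr (-1.16 ± 0.61, 0.117), Fgg (-0.44 ± 0.28, 0.193) and Ambp (0.67 ± 0.57, 0.323) were not called, and F2, Fgb and Hpx had too few counts to be tested. Alb was called without a filter on low counts. Ambp counts were 7, 6, 11, 3 and 6 in the inputs and 2, 2, 6, 2 and 19 in the pull-downs, with LFD replicate 2 of the pull-down alone high. Fibrinogen made up 47.1% to 51.7% of the 8 genes other than Alb in the kidney inputs and 71.6% to 87.3% in the pull-downs, and most of these counts were Fga.

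Tested as a difference, the pull-down change in liver was below that in kidney for Ambp (-2.96 ± 0.42, edgeR adjusted p = 5.68e-05) and Fga (-1.13 ± 0.16, edgeR adjusted p = 5.71e-05), where 8.84% of genes were called lower and 12.5% in either direction. Alb, Ttr, Apoh and Fgg were not called, and F2, Fgb and Hpx had too few counts in kidney for a result. Without LFD replicate 2 of the kidney pull-down, Ambp was at -2.18 with an adjusted p of 0.0576. The fit over both tissues shares the dispersion of a gene between them. Ambp passed its filter through liver, with 33 counts in the kidney inputs and 31 in the kidney pull-downs. The SEs of 0.42 and 0.16 were below those of the kidney changes alone (0.57 for Ambp and 0.18 for Fga). These p-values therefore do not measure the spread of the kidney libraries alone. Of the further coagulation genes, 13 could be tested in kidney, with 0 higher and 7 lower in the pull-down. Between diets, 0 of the 9 genes were called in the kidney input or pull-down by edgeR or DESeq2 (0% of genes called in each), with Alb in the pull-down the only one at an unadjusted p below 0.05 (1.93 ± 0.83, edgeR adjusted p = 0.942).

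VsWAT small RNA inputs held all 9 genes at low and uneven levels that were high or low together from library to library. Alb in small RNA input was at 642, 894 and 108 CPM (HFD) and 1063, 143 and 262 CPM (LFD). In the pull-down it was at 905, 1097 and 36.8 CPM (HFD) and 658, 94 and 100 CPM (LFD). In total RNA it was at 126, 253 and 11.8 CPM (HFD) and 83.0, 26.4 and 44.5 CPM (LFD). HFD replicates 1 and 2 and LFD replicate 1 were the high libraries in all 3 kinds, so high libraries occurred in both diets.

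The other 8 genes summed to 216, 328 and 40.3 CPM (HFD) and 318, 50 and 70.6 CPM (LFD) in the input, and to 341, 438 and 6.69 CPM and 229, 32.4 and 35.7 CPM in the pull-down. Intracellular hepatocyte genes, 16 that are not secreted, were present in the same libraries. They summed to 270, 298 and 121 CPM (HFD) and 398, 179 and 172 CPM (LFD) in the input and to 422, 749, 111, 433, 218 and 131 CPM in the pull-down, with counts for 13 to 16 of the 16 genes per input library. The part of hepatocyte RNA in these values was not tested.

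In VsWAT, as in both kinds of liver RNA, the log2 changes of the 3 fibrinogen genes were the highest of the 9, but only 1 gene was called in the unpaired test. That test counts the level shared by same-numbered libraries as spread. With the replicate number as a block, 6 of the 9 genes were called. The share of all genes called with the block is not given here, so this count has no background beside it. For the block fit, 1 of the 6 same-numbered pairs (HFD replicate 1, correlation 0.056 over all genes) missed the 0.1 set for pairing. Over all genes, the unpaired test called 22.9% lower and 43.9% in either direction. Scaling to the total count put the median of all genes at 0.64. F2 was at 14.2, 17 and 1.87 CPM (HFD) and 18.5, 7.38 and 8.12 CPM (LFD) in the input and at 10.9, 7.5, 0, 6.66, 0.42 and 0.775 CPM in the pull-down. In the unpaired test F2 was the only one of the 9 genes called (-2.11 ± 0.79, edgeR adjusted p = 0.0465). Its ranges overlapped, and it was lower in the pull-down than in the same-numbered input in 6 of 6 cases. The call was lost when any of 8 of the 12 libraries was left out, with scaling to the total count (-1.52), with DESeq2 (-2.05) and with near-copies summed (-1.99).

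Ttr (-2.18 ± 0.86, edgeR adjusted p = 0.0705), Ambp (-2.08 ± 0.89, 0.0815), Apoh (-1.47 ± 0.97, 0.25), Hpx (-1.38 ± 0.83, 0.209) and Alb (-0.83 ± 0.94, 0.51) were not called in the unpaired test. The fibrinogen estimates were above 0, at 0.14 ± 0.97 for Fga, 0.37 ± 0.96 for Fgb and 0.18 ± 1.01 for Fgg, and were not called either. Fibrinogen made up 27.9% to 41.4% of the 8 genes other than Alb in the inputs and 64.3% to 71.8% in the pull-downs. Alb counts per Ttr count ran from 10.1 to 16.1 in the inputs and from 22.8 to 36.7 in the pull-downs, so both ratios separated the fractions. The change in VsWAT was not called different from that in liver small RNA for any of the 9 genes by edgeR or DESeq2 (7.55% of all genes called), and none had an unadjusted p below 0.05.

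Of 12 further coagulation genes that could be tested in VsWAT, 0 were called higher and 5 lower in the pull-down (1 lower with scaling to the total count).

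Between diets, 0 of the 9 genes were called in VsWAT total RNA (0.194% of genes called), small RNA input (0.213%) or pull-down (0.103%) by edgeR or DESeq2, and none had an unadjusted p below 0.05. In VsWAT total RNA, LFD replicate 2 had 26 counts of Fgg (4.46 CPM) beside 1 count each of Fga and Fgb, which the other VsWAT libraries did not show at that ratio.

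GAS libraries set the lower end. Each held 1 to 18 counts of the 9 genes together, except LFD replicate 1 of the small RNA input with 115. That library had 56 Alb counts (24.2 CPM), 18 of Hpx, 12 of Fgg and 9 of Fga, and at least 1 count of each of the 9 genes. No member of the group had enough counts to be tested between GAS fractions, where 54.4% of genes were called.

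Alb was higher in VsWAT than in GAS in each kind of RNA, without overlap in CPM. In total RNA it ranged from 11.8 to 253 CPM in VsWAT and from 0.127 to 2.04 in GAS. In small RNA input the ranges were 108 to 1063 and 1.14 to 24.2 CPM. In the pull-down they were 36.8 to 1097 and 0 to 4.87 CPM. Alb had 28, 75 and 24 counts in all over the GAS libraries of these kinds. It was too low to be tested between GAS fractions, so its folds between the tissues are not given. Over all genes, edgeR called 66.6% in total RNA (30.0% higher in VsWAT). It called 43.5% in small RNA input (22.7% higher) and 52.7% in the pull-down (27.0% higher). The other 8 genes passed the filter in these comparisons only through VsWAT or had a few counts in GAS (Fga and Fgb had 0 in every GAS total RNA and pull-down library), so no count of them is given.

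In plasma, the 9 genes were near the detection limit in the input and very uneven in the pull-down. Input libraries had 32 and 41 counts of the 9 genes after HFD and 20 and 4 after LFD, with Alb at 55 and 31.4 CPM and at 23.9 and 1.8 CPM. Against liver small RNA input, Alb was lower by edgeR, at -8.96 ± 0.87 on the log2 scale (adjusted p = 1.81e-07), in a comparison where 58.6% of all genes were called and 35.3% were lower. The other 8 genes had 2 to 12 counts each over the 4 plasma inputs and passed the filter through liver, so no count of them is given.

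The plasma pull-down libraries did not resemble each other. Alb was at 6280 and 18.1 CPM after HFD and 346 and 1767 CPM after LFD. HFD replicate 1 had 5470 counts over all 9 genes, and HFD replicate 2 had 6, all of them Alb. LFD replicate 1 had 149 counts. LFD replicate 2 had 490, of which 392 were Alb, 63 Fgb and 33 Fgg, with 1 each of Fga and Hpx and 0 of Ttr, Ambp, Apoh and F2. Alb counts per Ttr count were 52.8 in HFD replicate 1 and 2.67 in LFD replicate 1. Intracellular hepatocyte genes summed to 6306, 9.06, 575 and 2839 CPM in the same order, in step with the 9 genes, and to 7.97 to 42.8 CPM in the inputs. Their part in these values was not tested.

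By edgeR, Alb was not called between plasma pull-down and input (4.05 ± 1.29, edgeR adjusted p = 0.123), where 0.951% of all genes were called. Its unadjusted p was below 0.05. DESeq2 called Alb at 4.27, as did scaling to the total count and edgeR without pull-down HFD replicate 2 or without pull-down LFD replicate 1. Ttr, Fga, Fgb, Fgg and Hpx had 12, 5, 4, 3 and 7 counts over the plasma inputs. They passed the filter only through the pull-down, so their folds are not given. Alb ranged from 0.25 to 5.16 as single libraries were left out. Between diets 0 were called in either plasma fraction by edgeR or DESeq2 (0% of genes called in each), with none at an unadjusted p below 0.05.

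Over the 28 group means of log2(CPM + 1), the genes most like the 9 were other liver transcripts. Of the same 4426 genes, Plg (plasminogen) had a Pearson correlation of 0.9929 with the mean profile of the 9, Fabp1 (liver fatty acid-binding protein) 0.992, Slco1b2 (a hepatocyte anion transporter) 0.9918, Apoa2 (an apolipoprotein of HDL) 0.9913 and Itih3 (an inter-alpha-trypsin inhibitor heavy chain) 0.99. The 9 genes themselves lay between 0.9735 for Alb and 0.9954 for Hpx, and the median gene was at 0.2106. The groups share tissues and libraries, so these values only describe the profiles. Plg itself varied from 63 to 1459 CPM among the liver mRNA inputs.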

How the data were processed

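The authors deposited raw read counts per gene for each library, made with STAR and HTSeq on mm10 per the submitters' processing notes. Aligner settings, versions and strand setting are not given in the sources used here. Counts were scaled to CPM over counts assigned to features, without the HTSeq summary lines. Pull-down, tissue and diet contrasts were fitted to all genes with edgeR 4.0.16 in R 4.3.3 (robust quasi-likelihood fit on TMM-scaled libraries; low genes removed by filterByExpr at a minimum count of 10), with Benjamini-Hochberg adjustment over all genes tested and a threshold of 0.05. The SE is that of the unshrunk coefficient. The fitting scripts were tested on simulated data. Alternatives were other scalings, no filter, DESeq2 1.42.0, replicate blocks, summed near-copies and leaving out each library.

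The 9 genes and the gene lists were chosen with earlier results of these data known. Named list genes were among those with the smallest p-values in a list, and 1 such gene is not reported here. Promoters and positions are from RefSeq tables on GRCm38.p6. All main fits were unpaired, and replicate blocks were run as alternatives. The mark set for pairing was a correlation of deviations over 0.1 for every same-numbered pair. It was met between diets in liver mRNA pull-down (0.161, 0.174 and 0.172) and in kidney mRNA input (0.386 and 0.456). It was also met between GAS small RNA input and pull-down (0.196 to 0.489).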

Additional observations from a re-analysis of the deposited data

Results flagged for a closer look

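The pull-down change of Ambp differed between liver and kidney mRNA by -2.96 on the log2 scale (liver minus kidney), and that of Fga by -1.13, each by a test of the difference itself in one fit over both tissues. Ambp passed the filter of that fit through liver and had only 33 counts in the kidney inputs and 31 in the kidney pull-downs. The SEs of that fit (0.42 and 0.16) were below those of the kidney changes alone (0.57 and 0.18). Its p-values therefore do not measure the spread of the kidney libraries alone. Without LFD replicate 2 of the kidney pull-down, the Ambp difference was -2.18 with an edgeR adjusted p of 0.0576 and was no longer called.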

How the results depend on the processing

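The count of the 9 genes called in liver mRNA pull-down against input was 9 with each single library left out. In liver small RNA it was 3 with total-count scaling, which turned the sign of Alb (0.01), Ambp (0.11), Apoh (0.11), Fga (0.60) and Fgg (0.73). In kidney it was 2 with total-count scaling, 2 without a filter and 1 to 2 as single libraries were left out (2 without pull-down LFD replicate 1). In VsWAT it was 0 with total-count scaling, 6 with a replicate block, 0 with near-copies summed and 0 to 1 with single libraries left out. Same-numbered VsWAT input and pull-down libraries correlated at 0.056 to 0.358 over all genes, so 1 of 6 pairs missed the 0.1 set for pairing, although the 9 genes were high or low together in same-numbered libraries. In GAS it was 2 without a filter and 0 to 1 with single libraries left out. In plasma it was 2 with total-count scaling, 2 with DESeq2 and 0 to 2 with single libraries left out. The tested genes other than Alb passed the plasma filter only through the pull-down, so these counts carry no weight for them.

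For diet in liver mRNA input the count was 0 with the replicate block, 0 with near-copies summed and 0 to 8 with single libraries left out. Leaving out LFD replicate 1 of the input turned the sign of Ttr, Apoh and Fgb, which ran from -0.63 to 0.25, -0.17 to 0.37 and -0.16 to 0.32 as single libraries were left out. In the test of diet against fraction it turned Apoh (-0.44 to 0.15) and Fgb (-0.40 to 0.12), which were then called, and Fgg (-0.18 to 0.25), which was not. That test called 1 gene with total-count scaling, 1 without a filter and 0 to 4 with single libraries left out. For diet in liver mRNA pull-down it was 5 with the replicate block and 1 with the dispersion from 4 groups. For diet in VsWAT total RNA it was 2 without a filter, and in plasma input 0 to 1 with single libraries left out. The liver minus kidney difference called 1 to 2. In plasma input the crossed replicate pairing, chosen after seeing the data, also called 0. The shares of all genes called in these alternative fits are not given here. Causes of these shifts were not tested. The shallow plasma libraries and the low counts in kidney and GAS limit what could be detected there.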
